A study of Mus musculus with 4 samples.

Results

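The genes described here are 6 genes of the primary granule and of the promyelocyte stage, Mpo, Elane, Prtn3, Ctsg, Prss57 and Ms4a3. They were taken by gene name from the deposited table of 23756 mouse genes, where each of the 6 names matched 1 gene. RNA-seq was performed on 32Dcl3-Abl1ko cells, a murine IL-3-dependent hematopoietic line in which Abl1 was targeted by CRISPR/Cas9. 2 libraries came from cells maintained on IL-3 (Abl1ko/IL3+), and 2 from cells that grew in its absence (Abl1ko/IL3-), so all 4 libraries carry the Abl1 knockout. The comparison asks which genes differ between IL-3-independent Abl1ko cells and Abl1ko cells still growing on the cytokine. Cells without IL-3 were grown out after gradual withdrawal, and the libraries are not tied to a guide or clone. The 32Dcl3-Abl1 control with IL-3 is not among the 4 libraries, so it was not analysed here.

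Primary (azurophil) granules are filled at the promyelocyte stage of granulocyte development. Their main cargo is myeloperoxidase together with a family of serine proteases, which are stored ready-made on a proteoglycan matrix and kept in check by intracellular inhibitors. Transcription of these genes is switched on in granulocyte-monocyte progenitors and is shut off as the later, secondary granules are made. 32D cells have long been used as a model of this step, because they grow as immature myeloid cells with IL-3 and can be driven towards granulocytes.

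Total counts ranged from 48953174 to 60382588 per library, where 3 counts equal 0.0497 to 0.0613 CPM (counts scaled to library size). Abl1 was counted 1322 and 2222 times with IL-3, against 1544 and 2256 times without it. This does not check the knockout, since edited transcripts can still be counted. No gene passed the threshold between the groups (0 of 16535 tested, or 0%, by the quasi-likelihood test of edgeR, adjusted p under 0.05 after Benjamini-Hochberg correction), and 978 genes reached an unadjusted p under 0.05. DESeq2's Wald test gave 271 genes. The labels call the cells pre-B cells. Of 12 pre-B cell markers, 7 were in the table, and 4 of these stayed below 1 FPKM (fragments per kilobase, scaled to depth) in every library, with Vpreb1 at 0.675 to 2.32 FPKM, Cd79a at 0.431 to 6.41 and Cd79b at 6.24 to 10.9. Of the 6 primary granule and promyelocyte genes, 5 were above all of these markers in every library, while Elane (2.10 to 4.54 FPKM) was below Cd79b in every library. The replicates of a group also differed in markers of other lineages, with summed levels of 9 erythroid markers of 381 and 12070 FPKM with IL-3, against 5594 and 3177 FPKM without it. Hba-a1, an alpha globin gene, was at 139 FPKM in Abl1ko/IL3+ replicate 1 and at 6657 FPKM in replicate 2, while Gata1, an erythroid transcription factor gene, differed less, at 84.8 and 120.2 FPKM.

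The 6 genes covered a wide range of levels. On the length-scaled FPKM values, Mpo and Ms4a3 were the most abundant, followed by Ctsg, Prtn3, Prss57 and, far below, Elane. The mean over the 4 libraries was 308.8 FPKM for Mpo, 232 for Ms4a3, 124 for Ctsg, 56.7 for Prtn3, 24.0 for Prss57 and 2.90 for Elane. Mpo (135 to 528 FPKM) and Ms4a3 (204 to 259 FPKM) overlapped, while Ctsg was below Ms4a3 in every library. From Ctsg downwards the ranges of neighbouring genes were separate. Together the 6 genes took 0.281% and 0.230% of all counts with IL-3, against 0.171% and 0.127% without it. Mpo held more of these counts than any other of the 6 genes in each library. It gave 121109 of 167861 and 80294 of 138671 counts with IL-3, and 43479 of 83758 and 28978 of 70454 without it. In CPM, only 1 of the 6 genes, Mpo, had both libraries without IL-3 below both with it, as did 17.9% of all genes tested. The lower pooled share is therefore not a fall shared by all 6 genes.

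**Figure D1:**
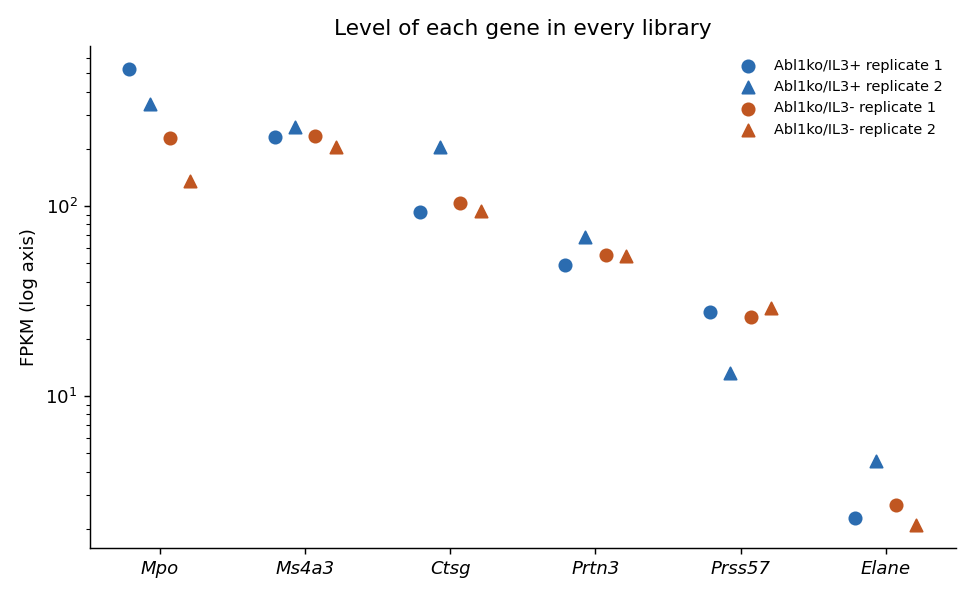
FPKM (log axis) of each of the 6 genes in every library, with blue points for Abl1ko/IL3+ and orange points for Abl1ko/IL3-, circles for replicate 1 and triangles for replicate 2. Mpo runs from 528 to 135 FPKM with both orange points below both blue points, whereas Elane stays between 2.10 and 4.54 FPKM.

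Mpo encodes myeloperoxidase, the heme enzyme that turns hydrogen peroxide and chloride into hypochlorous acid and the classical marker of the myeloid lineage. It lies on chromosome 11 from 87793581 to 87804413 on the plus strand (GRCm38, as all coordinates here). The Abl1ko/IL3+ libraries held 121109 and 80294 counts of Mpo, the Abl1ko/IL3- libraries 43479 and 28978. Normalised for library size and composition, these were 1879 and 1477 CPM with IL-3 against 908.4 and 499.2 CPM without it. Both libraries without IL-3 lay below both libraries with it. The mean was 1678 ± 284 CPM with IL-3 and 704 ± 289 CPM without it (SD, n = 2 each). By FPKM, Mpo ranked 131 and 220 among all genes with IL-3, and 275 and 443 without it.

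Mpo had a log2 fold change, Abl1ko/IL3- over Abl1ko/IL3+, of -1.25 (standard error 0.44, 95% interval -2.40 to -0.11), which is a level 2.38-fold lower. It did not pass the threshold (adjusted p = 0.827, unadjusted p = 0.0371, edgeR's quasi-likelihood test). An unadjusted p under 0.05 with a lower level was reached by 3.36% of all genes tested, and 17.9% of all genes tested had both libraries without IL-3 below both with it. 7.26% of genes had a log2 fold change as low as that of Mpo or lower. Leaving out each library in turn gave log2 fold changes from -1.75 to -0.88, and the adjusted p ran from 0.263 to 1 over all other ways of fitting the data that were tried, apart from crossed pairs. The unadjusted p of Mpo was above 0.05 without Abl1ko/IL3+ replicate 1 (0.0634), without Abl1ko/IL3- replicate 1 (0.0659), without Abl1ko/IL3- replicate 2 (0.312) or when the replicate number entered as a block (0.0519), each in edgeR. Of the 3424 exon bases of Mpo, 512 are shared with Gm11505, an antisense gene with 365 and 65 counts with IL-3 against 20 and 29 without it. Whether counting used strand is not given in the sources used here, so reads of that stretch cannot be assigned to one strand.

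Epx, the eosinophil peroxidase gene and a paralog of Mpo, lies 59.6 kb from it. No stretch of 31 bases is shared between the transcripts of these peroxidases, nor between those of Mpo and lactoperoxidase (Lpo). Epx had 146102 and 56479 counts with IL-3 against 37270 and 24231 without it. As with Mpo, both Abl1ko/IL3- libraries lay below both Abl1ko/IL3+ libraries. Its log2 fold change was -1.47 (standard error 0.57, adjusted p = 0.841, edgeR's quasi-likelihood test). The ratio of Mpo to Epx was 0.663 and 1.14 with IL-3 against 0.932 and 0.956 without it, on the FPKM scale. Lpo, the third peroxidase of this cluster, stayed between 0 and 39 counts.

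The summed level of eosinophil markers was also lower in both libraries without IL-3. Of 8 markers 6, Epx among them, were in the table, with sums of 1601 and 2677 FPKM with IL-3 and 1052 and 841 FPKM without it. Ear6, a ribonuclease of eosinophil granules, was at 723 and 223 FPKM with IL-3 and at 17.8 and 49.2 FPKM without it. Prg2, the major basic protein of the same granules, showed no such order, with 45.5 and 1973 FPKM with IL-3 and 716 and 577 FPKM without it. Il5ra, the receptor chain that defines the lineage, was at 0 FPKM in 3 libraries and at 0.06 FPKM in Abl1ko/IL3+ replicate 1. Of the 5 markers tested, 4 were lower and 1 was higher without IL-3. The higher one was Siglecf, named after its values were seen, at 32.9 and 34.6 FPKM with IL-3 and at 41.6 and 46.1 FPKM without it. The part of these markers in the result for Mpo was not tested. In bulk RNA, fewer cells of a type and less RNA per cell cannot be told apart.

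Ms4a3, on chromosome 19 from 11629496 to 11640834 on the minus strand, encodes a membrane protein of the MS4A family that marks the descent of granulocyte-monocyte progenitors. It had 29204 and 33168 counts with IL-3 against 24661 and 24156 without it. On the CPM scale these were 453 and 610.0 with IL-3 against 515 and 416 without it, so the groups overlapped. The highest library exceeded the lowest by 1.27-fold in FPKM, the narrowest spread of the 6 genes. The log2 fold change was -0.19 (standard error 0.35, 95% interval -1.09 to 0.71, adjusted p = 0.98 in edgeR), so that a change of up to about 1.64-fold upwards or down to 0.469 of the level with IL-3 was within the interval. Without Abl1ko/IL3+ replicate 2 the log2 fold change was 0.043.

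The ratio of Mpo to Ms4a3 was lower without IL-3, and on the FPKM scale their order differed between the groups. By raw counts or CPM, Mpo stayed above Ms4a3 in every library, so the change of order depends on the length scaling of FPKM. Within a library this ratio does not depend on the normalisation between libraries. Mpo stood at 2.28 and 1.33 times the level of Ms4a3 with IL-3, against 0.970 and 0.660 times without it, on the FPKM scale. Against the mean of the other 5 genes, the log2 level of Mpo was 4.97 and 4.02 higher in CPM with IL-3, and 3.66 and 3.02 higher without it, a difference of -1.16 on the log2 scale. All of these values were lower without IL-3. With 2 libraries per group the exact permutation test cannot reach the threshold, and it gave p = 0.333, the smallest value this design allows (two-sided). Mpo made up 56.7% and 38.6% of the summed FPKM of the 6 genes with IL-3, and 35.01% and 26.0% without it.

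**Figure D2:**
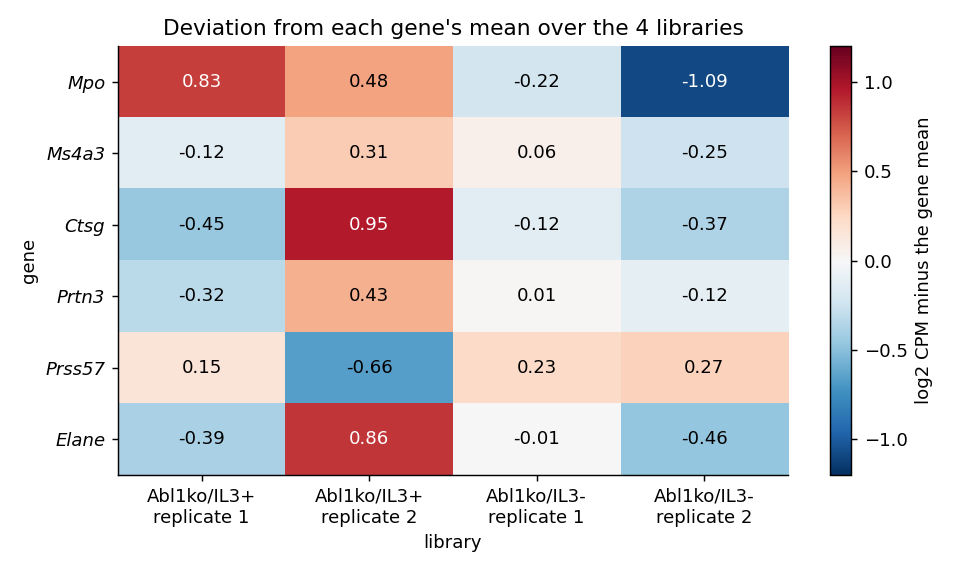
Log2 CPM of each gene (rows) in each library (columns) minus the gene's mean over the 4 libraries, on a colour scale from blue (below the mean) to red (above it). Mpo is positive in both Abl1ko/IL3+ libraries and negative in both Abl1ko/IL3- libraries. Ctsg, Elane, Prtn3 and Ms4a3 are highest in Abl1ko/IL3+ replicate 2, and Prss57 is lowest there.

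None of the 4 serine protease genes had both libraries without IL-3 below both with it, as Mpo did. Of all genes tested, 17.9% had that order, so its absence from 4 genes does not set them apart. Ctsg encodes cathepsin G, a chymotrypsin-like protease of the granule, and lies on chromosome 14 from 56099881 to 56102574 on the minus strand. It had 6419 and 14294 counts with IL-3 against 5994 and 6105 without it. The level in Abl1ko/IL3+ replicate 2 (263 CPM) stood above the other libraries (99.6 CPM in Abl1ko/IL3+ replicate 1, 125 and 105 CPM without IL-3). The log2 fold change was -0.65 (standard error 0.53, 95% interval -2.03 to 0.72, adjusted p = 0.920 in edgeR). It rested on that library, since without Abl1ko/IL3+ replicate 2 it was 0.21, and without Abl1ko/IL3+ replicate 1 it was -1.18. Mcpt8, the next gene of the same protease cluster in the table and a marker of basophils, had 1225 and 2741 counts with IL-3 against 3386 and 1963 without it. Its highest level was in Abl1ko/IL3- replicate 1, and it shared no stretch of 31 bases with Ctsg.

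Prtn3 and Elane encode proteinase 3 and neutrophil elastase, close relatives that cleave elastin and other matrix proteins. They are neighbours on chromosome 10, Prtn3 from 79874476 to 79883174 and Elane from 79886247 to 79888215, both on the plus strand and 3.1 kb apart. The sequences before their start sites are shown because the genes sit side by side and had very different RNA levels. Transcription itself was not measured. They come from RefSeq's table for GRCm38.p6, which held promoters of 5 of the 6 genes, and end where GENCODE release M21 begins an exon. Capitals mark the letters GAGGAA, the core bound by PU.1 and other ETS factors. The Prtn3 window lies between exons of the gene as GENCODE draws it. It is chr10:79879514-79879613 and the Elane window chr10:79886147-79886246, both on the plus strand. That of Mpo is chr11:87793534-87793580, also on the plus strand.
Prtn3: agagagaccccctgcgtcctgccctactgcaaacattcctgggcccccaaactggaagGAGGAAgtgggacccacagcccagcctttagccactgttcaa
Elane: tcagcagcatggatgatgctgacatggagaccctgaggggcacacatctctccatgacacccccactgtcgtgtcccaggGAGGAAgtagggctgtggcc
Mpo: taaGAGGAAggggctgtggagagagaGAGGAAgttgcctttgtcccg

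In the 250 bases before the RefSeq start, searched on both strands, GAGGAA began 95 bases before the start of Prtn3 and 85 bases before that of Elane. The MYB core CAACGG followed at 56 and 51 bases and TATAA at 32 and 31 bases before these starts. The printed stretches end before the last letters of these matches. GAGGAA occurred in 23.3% of all 32851 promoters of the table, CAACGG in 4.05% and TATAA in 22.8%. Mpo held GAGGAA at 247 and 224 bases and neither of the others. For Mpo, however, only the bases from 250 to 204 lie before the start of the gene in GENCODE. The absence of letters there covers little sequence before that start. The Elane matches at 51 and 31 bases also lie past its GENCODE start. Ctsg held GAGGAA at 216 bases, a TATAA on the other strand at 236 bases and, also on the other strand, the RUNX core TGTGGT (14% of all promoters) at 79 bases. The C/EBP core TTGCNNAA (9.56% of all promoters) was in none of the 5, and Ms4a3 held none of the letters searched. A match is a description of the letters and not a bound site.

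Prtn3 had 5678 and 8065 counts with IL-3 against 5330 and 5910 without it. Its levels were 88.1 and 148 CPM with IL-3 and 111 and 102 CPM without it, with both libraries without IL-3 between those with it. The log2 fold change was -0.15 (standard error 0.38, 95% interval -1.12 to 0.82, adjusted p = 0.982 in edgeR). Elane had 152 and 304 counts with IL-3 against 147 and 130 without it, which is 2.36 and 5.59 CPM with IL-3 against 3.07 and 2.24 CPM without it. The groups overlapped here as well (log2 fold change -0.58, standard error 0.64, 95% interval -2.22 to 1.06, adjusted p = 0.943 in edgeR). Without Abl1ko/IL3+ replicate 2 the log2 fold changes were 0.28 for Prtn3 and 0.17 for Elane. Plppr3, on the other strand, shares 9.18% of the exon bases of Prtn3.

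Elane was the gene that stood apart in level. It ranked between 6582 and 9800 among all genes by FPKM, against 851 to 1002 for Prtn3. Prtn3 exceeded Elane by 21.3- and 15.1-fold with IL-3, and by 20.7- and 25.9-fold without it, so the gap was present in every library and both groups overlapped in it. At the lowest count of Elane, counting error alone amounts to 8.77% of the value. The transcripts of Elane share no stretch of 31 bases with any other gene of GENCODE release M21, so that reads of other genes of that annotation do not match it over that length. Cfd, the next protease gene of the cluster, had no entry under that name among the deposited genes, so it was not analysed here.

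Prss57, which encodes neutrophil serine protease 4, an enzyme with trypsin-like specificity for arginine, lies 83.5 kb from Prtn3 on chromosome 10, from 79781474 to 79790961 on the minus strand. It had 5299 and 2546 counts with IL-3 against 4147 and 5175 without it. In CPM, 3 libraries lay close together, at 82.2 (Abl1ko/IL3+ replicate 1), 86.6 and 89.2 (Abl1ko/IL3-), and Abl1ko/IL3+ replicate 2 lay below them at 46.8. Both libraries without IL-3 were above both with it in CPM, as for 19.4% of all genes tested, but not in FPKM, where Abl1ko/IL3+ replicate 1 was at 27.8 and Abl1ko/IL3- replicate 1 at 26.0. The log2 fold change was 0.45 (standard error 0.39, 95% interval -0.55 to 1.45, adjusted p = 0.928 in edgeR), and 0.10 without Abl1ko/IL3+ replicate 2. Fstl3, a gene of the other strand, covers 40.7% of the exon bases of Prss57, so the level of Prss57 depends on how reads of that stretch were counted. Fstl3 itself had between 0 and 74 counts.

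Across the 6 genes, 0 passed the adjusted threshold, 1 (Mpo) had an unadjusted p under 0.05 (5.91% of all genes tested, in either direction), 5 had a negative and 1 a positive log2 fold change. Their median log2 fold change was -0.39, against -0.03 over all genes tested. That median depended on the Abl1ko/IL3+ libraries, and was 0.14 without replicate 2 and -0.76 without replicate 1. Erythroid markers, given above, were also far apart between these replicates, and their part in these values was not tested. Among 9225 other genes with a mean of 10 CPM or more, those whose profile over the 4 libraries lay closest to the mean profile of the 6 genes were Mcm6, Zmiz2, Rras2, Hdgfl2 and Rars, with root mean square distances of 0.018 to 0.0315 on the log2 scale. With 4 libraries such a likeness is a description only.

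**Figure D3:**
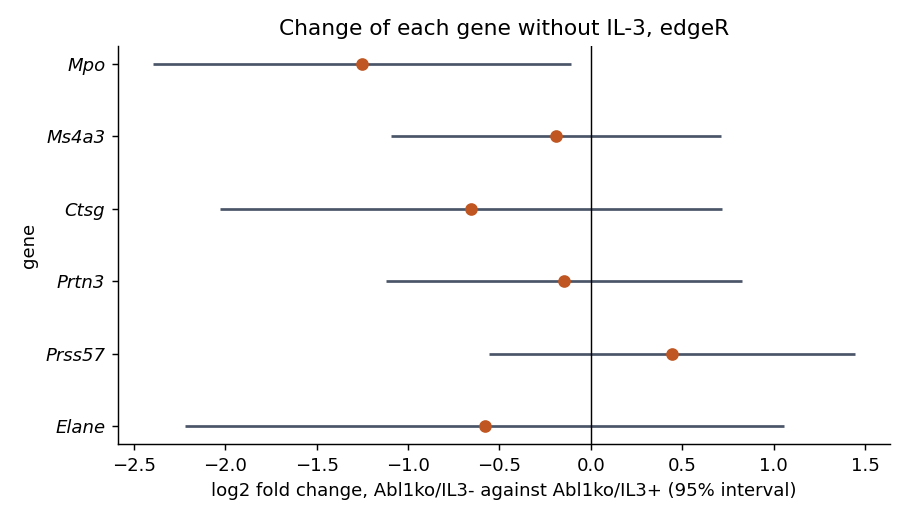
Difference in log2 level of each gene, Abl1ko/IL3- minus Abl1ko/IL3+ (points), with its 95% interval from edgeR (lines). The interval of Mpo runs from -2.40 to -0.11 before adjustment for the number of genes, and those of the other 5 genes include 0.

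Granule proteases are activated by cathepsin C, packed on serglycin and held by serpins, while cystatin F acts on cathepsin C. Of 11 genes for these steps, all were tested, 0 passed the adjusted threshold, and 2 had an unadjusted p under 0.05, both lower without IL-3. Their median log2 fold change was -0.48, 3 of the genes being higher and 8 lower. Serpina3g, a serpin expressed in hematopoietic progenitors, was at 1374 and 1512 FPKM with IL-3 and at 552 and 583 FPKM without it (log2 fold change -1.38, standard error 0.37, adjusted p = 0.727 in edgeR). It belongs to a multigene family, and how reads shared with other Serpina3 genes were counted was not examined. Cst7, which encodes cystatin F, an inhibitor of cathepsin C, was at 481 and 321 FPKM with IL-3 and at 182 and 229 FPKM without it (log2 fold change -0.97, standard error 0.33, adjusted p = 0.815). Srgn, which encodes serglycin, was at 1187 and 656 FPKM with IL-3 and at 509 and 795 FPKM without it, so the groups overlapped. Ctsc, the activating protease itself, had 75.3 and 78.5 CPM with IL-3 and 74.1 and 61.2 CPM without it.

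Of 13 other granule and lysosomal enzymes, 0 passed the adjusted threshold and 1 had an unadjusted p under 0.05. This was Lyz2, the lysozyme of myeloid cells, at 10.7 and 13.4 FPKM with IL-3 and at 48.7 and 342 FPKM without it. Both libraries without IL-3 were above both with it (log2 fold change 3.94, standard error 0.98, adjusted p = 0.727 in edgeR), although the libraries without IL-3 were themselves far apart. DESeq2 called Lyz2 (adjusted p = 0.00094). Ctsd and Psap, which encode cathepsin D and the precursor of the saposins, had log2 fold changes of -0.45 and 0.31 with adjusted p-values of 0.900 and 0.948. The median of the list was -0.03, the same as over all genes tested to this precision.

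Of 11 other genes of granulocyte-monocyte progenitors and promyelocytes, 10 were tested, 0 passed the adjusted threshold and 1 had an unadjusted p under 0.05. This was Nkg7, a granule membrane protein gene, at 182 and 199.9 FPKM with IL-3 and at 77.7 and 72.3 FPKM without it (log2 fold change -1.38, standard error 0.33, adjusted p = 0.727 in edgeR). Plac8 overlapped between the groups, at 729 and 397 FPKM with IL-3 and 419 and 600.0 FPKM without it. Calr, an endoplasmic reticulum chaperone that binds the Mpo precursor, was at 1497 and 1271 FPKM with IL-3 and at 1012 and 937 FPKM without it, below both (log2 fold change -0.52, adjusted p = 0.901). The other abundant genes of a 9-gene list for heme supply and folding of the peroxidase, Pdia3 and Canx, had log2 fold changes of 0.49 and 0.10, and 0 genes of that list passed either threshold.

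PU.1 (Spi1), MYB, RUNX1 with CBFB, C/EBP factors and GFI1 are known to act on primary granule promoters. Of 10 such genes tested, 0 passed the adjusted threshold, at a median log2 fold change of -0.37 (4 of them higher, 6 lower). Cebpe was at 311 and 146 FPKM with IL-3 and at 125 and 230.4 FPKM without it, with overlapping groups. Myb was at 80.4 and 30.8 FPKM with IL-3 and at 57.6 and 70.8 FPKM without it, and Spi1 at 42.2 and 39.1 FPKM with IL-3 and at 24.9 and 38.8 FPKM without it. The 1 gene with an unadjusted p under 0.05 was Gfi1, named after its values were seen, with 657 and 340 counts with IL-3 against 80 and 110 without it (log2 fold change -2.20, standard error 0.53, adjusted p = 0.727 in edgeR). It encodes a repressor needed for neutrophil development, and DESeq2 called it (adjusted p = 0.0117).

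Most genes of the list called markers of later neutrophil granules had higher levels without IL-3. That name is loose, since S100a8 and S100a9 encode a cytosolic complex and Ly6g a surface protein. Of 11 such markers 9 were tested, 7 with a positive and 2 with a negative log2 fold change, 0 passed the adjusted threshold in edgeR, and 5 had an unadjusted p under 0.05, all higher without IL-3, where 2.56% of all genes tested did so. DESeq2's Wald test, which called 271 of all 16535 genes tested, called 5 of these markers. Their median log2 fold change was 4.23, the value of Ly6g, against -0.39 for the 6 primary granule and promyelocyte genes. The difference between these lists was not tested. Ngp, a secondary granule protein gene, was at 541 and 158 FPKM with IL-3 and at 427 and 3031 FPKM without it, so that only Abl1ko/IL3- replicate 2 lay above the rest. S100a8 and S100a9 encode the calprotectin complex of neutrophils. S100a8 was at 1.56 and 0.428 FPKM with IL-3 and at 87.7 and 165 FPKM without it (log2 fold change 6.98, standard error 0.78, adjusted p = 0.532 in edgeR). S100a9 was at 13.1 and 2.50 FPKM with IL-3 and at 230.4 and 657 FPKM without it. The 2 markers with a negative log2 fold change, named after their values were seen, were Cd177 (-2.93, adjusted p = 0.854 in edgeR) and Mmp9 (-0.33, adjusted p = 0.980). Mpo and Ngp held opposite extremes in Abl1ko/IL3- replicate 2, the library with the lowest Mpo and the highest Ngp. Elane and Ms4a3 were also lowest in that library, whereas Prss57 was highest in it. Ctsg and Prtn3 were lowest in Abl1ko/IL3+ replicate 1, so the 6 genes did not share this order.

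**Figure D4:**
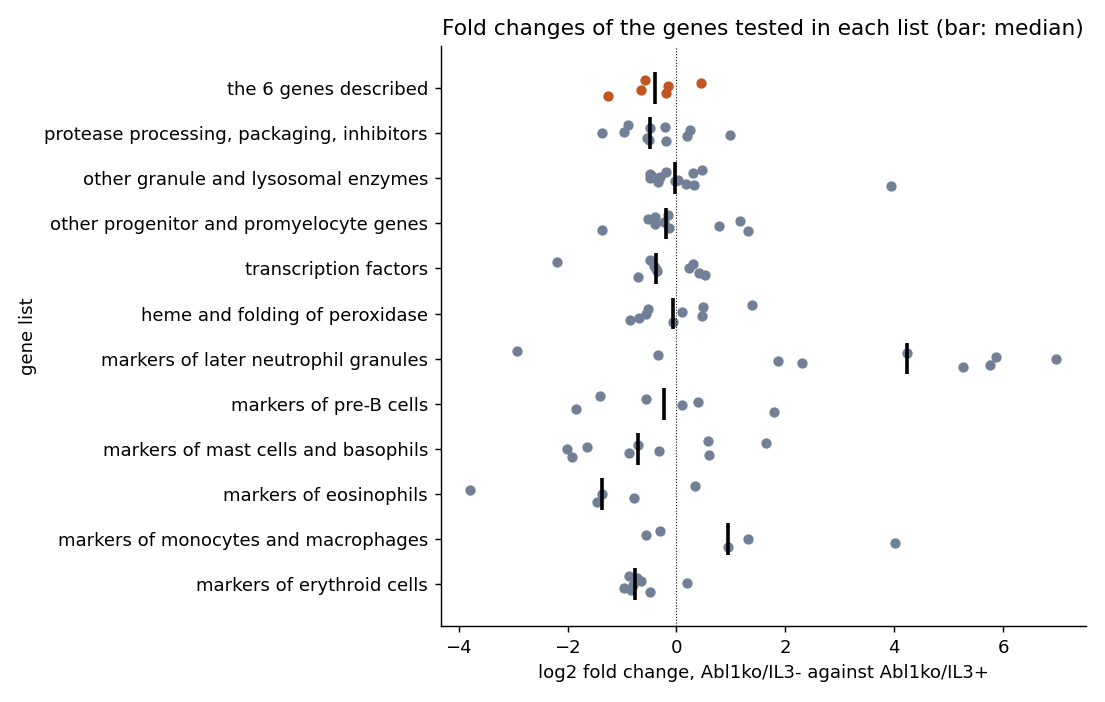
Difference in log2 level, Abl1ko/IL3- minus Abl1ko/IL3+, of every gene tested in each list (grey points), with the 6 primary granule and promyelocyte genes in orange and black bars for the medians. The medians lie between -1.37 for eosinophil markers and 4.23 for markers of later neutrophil granules, with the 6 genes at -0.39.

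Markers of other lineages gave no list with a gene past the adjusted threshold in edgeR, while DESeq2 called the eosinophil marker Ear6. Mast cell and basophil markers (10 in the table) summed to 1008 FPKM in Abl1ko/IL3+ replicate 1 and to between 152 and 300 FPKM in the other libraries. Cpa3 was at 198 FPKM in that library and at 13.6 to 28.6 FPKM in the others. Prss34 and Fcer1a, a basophil protease gene and the IgE receptor chain, were highest there too, at 548 and 187 FPKM, whereas Mcpt8 was lowest there, at 18.3 FPKM. Monocyte and macrophage markers (9 in the table) summed to 123 and 16.8 FPKM with IL-3 and to 34.3 and 73.2 FPKM without it, and 6 of them stayed below 1 FPKM throughout. Adgre1 and Cd68 were highest in Abl1ko/IL3+ replicate 1, at 59.6 and 56.7 FPKM, and Csf1r, the receptor gene of the lineage, was highest in Abl1ko/IL3- replicate 2, at 10.2 FPKM. Neither of these lists had its highest sum in Abl1ko/IL3+ replicate 2, where Ctsg, Prtn3, Elane and Ms4a3 were highest. The erythroid, eosinophil and pre-B cell lists did, although genes within the eosinophil and pre-B cell lists differed. Prg2 was highest there, at 1973 FPKM, whereas Epx and Ear6 were highest in Abl1ko/IL3+ replicate 1, at 797 and 723 FPKM. Cd79a was highest in Abl1ko/IL3+ replicate 2, at 6.41 FPKM, whereas Cd79b was lowest there, at 6.24 FPKM. The pre-B cell sums were close, at 13.1 and 15.4 FPKM with IL-3 and at 12.4 and 12.9 FPKM without it. The part of any of these lists in the levels of the 6 genes was not tested.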

How the data were processed

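RNA depleted of ribosomal RNA was sequenced by the authors on an Illumina HiSeq instrument. According to the paper's methods, reads were aligned to GRCm38 and raw counts per gene were made by the authors with featureCounts of Rsubread. The submitters' processing notes instead list STAR and Cuffdiff and the build mm10. The authors also deposited FPKM values, whose tool is not given in the sources used here. Versions and the strand setting are not given either.

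Here, the raw counts of the 4 libraries were filtered with filterByExpr (16535 genes), normalised with TMM and tested with edgeR 4.0.16 in R 4.3.3 (quasi-likelihood F test, two-sided, Benjamini-Hochberg adjustment over all genes tested, threshold 0.05). Standard errors came from the log2 fold change and F. CPM values use TMM, and FPKM values are as deposited. Libraries of every pair differed by more than sampling noise, so each counted as 1 sample. The chi-square statistic over its degrees of freedom was largest for the Abl1ko/IL3+ pair (530.3) and smallest for the Abl1ko/IL3- pair (202.6). Pairs across the groups ran from 287 to 446.8. The correlation of log2 CPM was 0.930 for the Abl1ko/IL3+ pair, 0.963 for the Abl1ko/IL3- pair and 0.924 to 0.947 across the groups. The labels do not say what the replicates are beyond biological duplicates, and p-values measure the spread between these samples. The 95% intervals of fold changes come from the same fit and also carry the spread between libraries, whereas floors of 3 counts cover counting error only.

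The 6 genes and all lists were chosen with earlier results of these data known. Named genes were the 6 genes, Abl1, the paralogs next to them, the 3 genes of each list with the highest mean FPKM, and the 5 genes with the closest profile. Others are marked as chosen later, except Ctsc, Il5ra, Gm11505, Plppr3, Fstl3 and Lpo, which are given for their role or position. The motif letters were chosen with the promoter sequences in view. Alternatives were DESeq2 1.42.0, other size factors, other filters, a replicate block, limma 3.58.1 on log2(FPKM + 1) and log2(FPKM + 0.1), and leaving out each library. The edgeR and DESeq2 fits were run on simulated counts with known fold changes, all larger than those of the 6 genes. Recovery of changes as small as theirs was therefore not tested. The other steps, limma among them, were not run on simulated data.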

Additional observations from a re-analysis of the deposited data

How the results depend on the processing

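In edgeR the number of genes changed was 0 with the size factors of DESeq2, with plain library sizes, with all genes kept and after requiring 10 counts in each library, and it was also 0 in limma on FPKM with both pseudocounts. It was 271 with DESeq2's Wald test (111 higher and 160 lower without IL-3), which called 0 of the 6 genes. Leaving out each library gave 0 to 22 genes, with the lone library of a group assumed to vary like the other group. DESeq2 called 1 granule and lysosomal enzyme (Lyz2), 1 transcription factor (Gfi1), 5 markers of later neutrophil granules (Ltf, Camp, S100a8, S100a9 and Ly6g) and 1 eosinophil marker (Ear6). Of these, Gfi1, Ltf, Camp and Ly6g are named after their values were seen. With a library left out the counts ranged from 0 to 1 for the enzymes and from 0 to 3 for the later granule markers, highest without Abl1ko/IL3- replicate 1. The cause was not tested. The median log2 fold change of the 6 genes ranged from -0.76 to 0.14 with a library left out, that of Elane from -1.06 to 0.17, of Prtn3 from -0.46 to 0.28, of Ctsg from -1.18 to 0.21 and of Ms4a3 from -0.38 to 0.043. All 4 of these signs changed without Abl1ko/IL3+ replicate 2. Mpo stayed negative and Prss57 positive in every fit but that with crossed pairs, which was not examined for sign, Mpo from -1.31 to -1.25 over the 8 fits with all libraries.

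Same-numbered libraries share only a number, and across genes the correlation of their deviations around the group means was -0.211. With the replicate block 0 genes passed the adjusted threshold, and 548 genes, 0 of the 6 among them, had an unadjusted p under 0.05. Mpo then had a log2 fold change of -1.31 (unadjusted p = 0.0519 in edgeR). With the pairs crossed, chosen after seeing the data, 0 genes passed the adjusted threshold, 0 of the 6 genes among them, and 1136 genes, 1 of the 6 among them, had an unadjusted p under 0.05.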
